A study of Bos taurus with 15 samples.

Results

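MAD2L1 and CNTRL are a spindle checkpoint gene and a mother-centriole gene, and both had a row under their symbol in a table of raw RNA-seq counts from bovine morulae. They are 2 of the 31999 rows, taken by their symbols with earlier results of these data known, and both passed the filter on low counts that left 16375 rows to be tested. The libraries were 15 in number, from Bos taurus morulae, the compact ball of cleaving cells that precedes the blastocyst. They fell into 3 groups of 5: haploid androgenetic embryos, which develop with a sperm genome alone, haploid parthenogenetic embryos, which develop from an oocyte without sperm, and diploid ICSI embryos, for which a sperm is injected into the oocyte (intracytoplasmic sperm injection). All were polyadenylated RNA amplified with the same kit. The labels name no breed, animal, bull or day, and do not say whether a library is 1 embryo or a pool. They do not describe how the haploid embryos were made. Sample titles carry the codes CHX for parthenogenetic, TII for androgenetic and ICSI for diploid libraries, and what CHX and TII stand for was not settled here. Group and the procedure behind it cannot be told apart, nor can ploidy and procedure where a haploid group is set against ICSI. The p-values rest on a spread between libraries that may be technical.

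The protein of MAD2L1, MAD2, is the effector of the spindle assembly checkpoint. At kinetochores not yet held by microtubules it changes its fold, binds CDC20 and keeps the anaphase-promoting complex from being activated, so that chromosomes are not parted early. Centriolin, the product of CNTRL, sits at the subdistal appendages of the older centriole of a pair and at the midbody, where it is needed for the final cut of cytokinesis. In cattle the sperm brings a centriole into the egg, while the oocyte loses its own, so a parthenogenetic embryo starts without one and androgenetic and ICSI embryos do not.

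Total counts per library ran from 19968077 to 28981601, and rows with at least 1 count from 13564 in androgenetic replicate 6 to 19950 in ICSI replicate 4. The libraries with the fewest detected rows in the other groups were ICSI replicate 5 with 15286 and parthenogenetic replicate 6 with 16154. Levels below are given as CPM, a count relative to the library's total, scaled by edgeR's TMM factors, which ran from 0.649 in androgenetic replicate 6 to 1.38 in ICSI replicate 3, so scaled levels differ from plain shares of the library. Of 7 marker genes of the embryo and pluripotent cells 1, SOX2, had a row under its symbol. It was detected in all 15 libraries, from 0.163 CPM (3 counts) in androgenetic replicate 6 to 8.28 CPM in parthenogenetic replicate 6. The fixed markers of trophectoderm, oocyte, cumulus cells and sperm had 0 rows under their symbols, so the labelled stage and admixed cells were not checked further.

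The row MAD2L1 held many counts, and androgenetic morulae had it at either a low or a high level, with none between. RefSeq's gene table for ARS-UCD2.0 lists MAD2L1 as a very short gene next to KCNA4, which could be a processed copy, so whether the row counts the checkpoint gene, a copy of it or both was not settled, and every MAD2L1 value here is that of the row. In androgenetic replicates 1, 2 and 5 it stood at 491, 380 and 504 CPM. In androgenetic replicates 4 and 6 it stood at 3678 and 6615 CPM. In bulk RNA such as this, fewer expressing cells and less RNA per cell cannot be told apart. The parthenogenetic libraries lay close together, at 1818, 1949, 1719, 1755 and 2185 CPM for replicates 1, 2, 3, 5 and 6.

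The ICSI libraries were nearly as alike apart from replicate 5. Their levels were 1551, 1499, 1619, 2057 and 3619 CPM for replicates 1 to 5. The 10 libraries of the parthenogenetic and ICSI groups therefore spanned 1499 to 3619 CPM, and all 5 androgenetic libraries fell outside that span, 3 below it and 2 above. The same was true of plain shares of all counts: 0.0460%, 0.0277% and 0.0392% in androgenetic replicates 1, 2 and 5, 0.375% and 0.429% in replicates 4 and 6, and between 0.169% and 0.339% in the other 10 libraries. Counting error is small at this depth, since the lowest count of MAD2L1 was 6177.

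**Figure D1:**
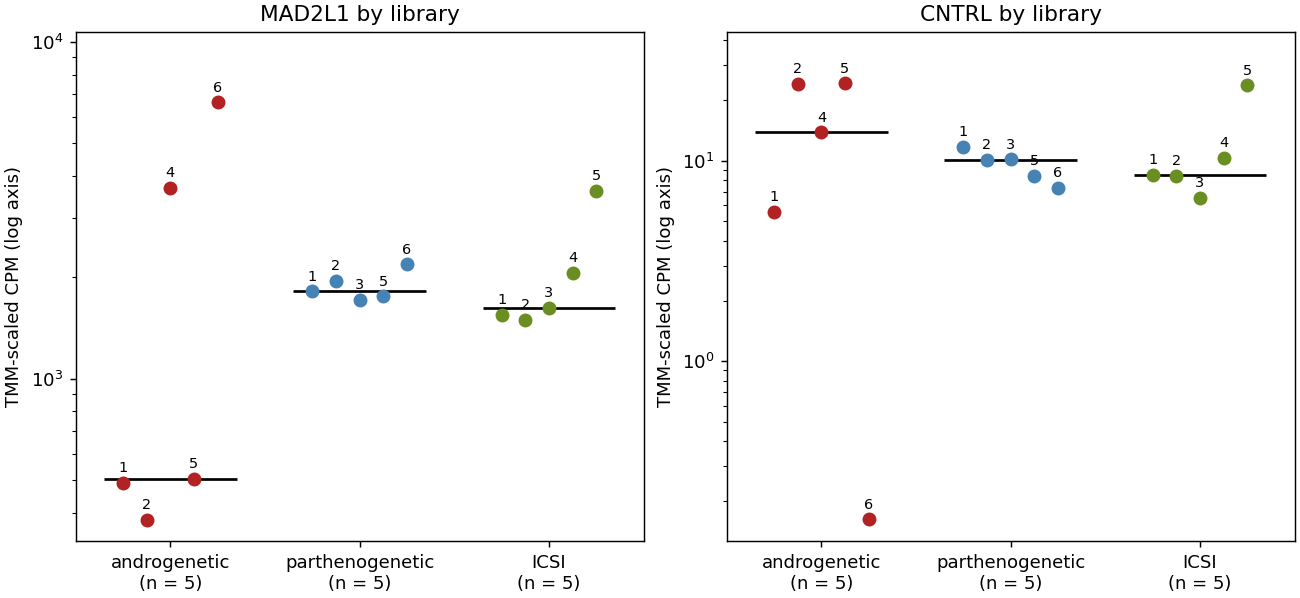
TMM-scaled CPM of MAD2L1 and CNTRL (log axes) in each library, by group. Points are single libraries marked with their replicate number and the bar is the median of 5. The androgenetic MAD2L1 values lie at 380 to 504 and at 3678 to 6615 CPM, on either side of the other 10 libraries, and CNTRL is at 0.163 CPM in androgenetic replicate 6.

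This pattern, described after the values were seen, was uncommon but not particular to MAD2L1. Of the 16375 tested rows, 225 (1.37%) had all 5 androgenetic libraries outside the span of the other 10 with some on each side, and 147 (0.898%) did by share of counts. For the parthenogenetic group 6 rows were so placed and for the ICSI group 5, and by share of counts 2 and 11. The androgenetic libraries were the least alike across all rows too, with a median SD of log2(CPM + 1) of 1.02, against 0.662 in parthenogenetic and 0.577 in ICSI libraries.

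MAD2L1 was among the more spread rows in the androgenetic libraries and among the least spread in the parthenogenetic ones. Its SD on the log2(CPM + 1) scale was 1.91 for the androgenetic group, 0.140 for the parthenogenetic and 0.531 for ICSI (n = 5 each). Of all tested rows 6.33% were at least as spread in the androgenetic libraries, while 98.7% were at least as spread in the parthenogenetic ones. Among the 154 rows whose mean lay within 2-fold of that of MAD2L1, 3 were at least as spread in the androgenetic libraries, MAD2L1 itself and the rows ENSBTAG00000019211 and ENSBTAG00000024874. No test was made of these spreads.

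CNTRL was counted far less often, with 3 to 508 counts per library. In androgenetic replicates 1, 2, 4, 5 and 6 it stood at 5.57, 24.1, 13.8, 24.4 and 0.163 CPM. The parthenogenetic levels were again close together, at 11.7, 10.1, 10.2, 8.44 and 7.30 CPM for replicates 1, 2, 3, 5 and 6. Those of ICSI replicates 1 to 5 were 8.50, 8.37, 6.55, 10.4 and 23.8 CPM.

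The groups overlapped. Androgenetic replicate 4 lay inside the span of the other groups, replicates 1 and 6 below it, and replicates 2 and 5 just above ICSI replicate 5. By share of counts the last 2 were no longer above it. The SD of log2(CPM + 1) was 1.86 for the androgenetic group, 0.240 for the parthenogenetic and 0.662 for ICSI. Of all tested rows 7.67%, 94.7% and 40.0% were at least as spread in these groups. Among the 4134 rows whose mean lay within 2-fold of that of CNTRL, the shares were 14.0%, 96.7% and 47.5%.

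In androgenetic replicate 6 CNTRL had 3 counts, an exact Poisson 95% interval of 0.619 to 8.77 counts or 0.0335 to 0.475 CPM, which covers counting error only. The next lowest library, androgenetic replicate 1, had 127 counts (4.65 to 6.63 CPM by the same interval). Androgenetic replicate 6 was thus low beyond counting error, and it was also the library with the highest MAD2L1. Loss of a row in that library was not limited to CNTRL. Of 4527 rows with at least 100 counts in each of the other 14 libraries, 173 (3.82%) had at most 3 counts in androgenetic replicate 6, against 0 to 13 rows counted the same way in each of the other libraries. Whether the low CNTRL value comes from few detected rows in that library was not tested.

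**Figure D2:**
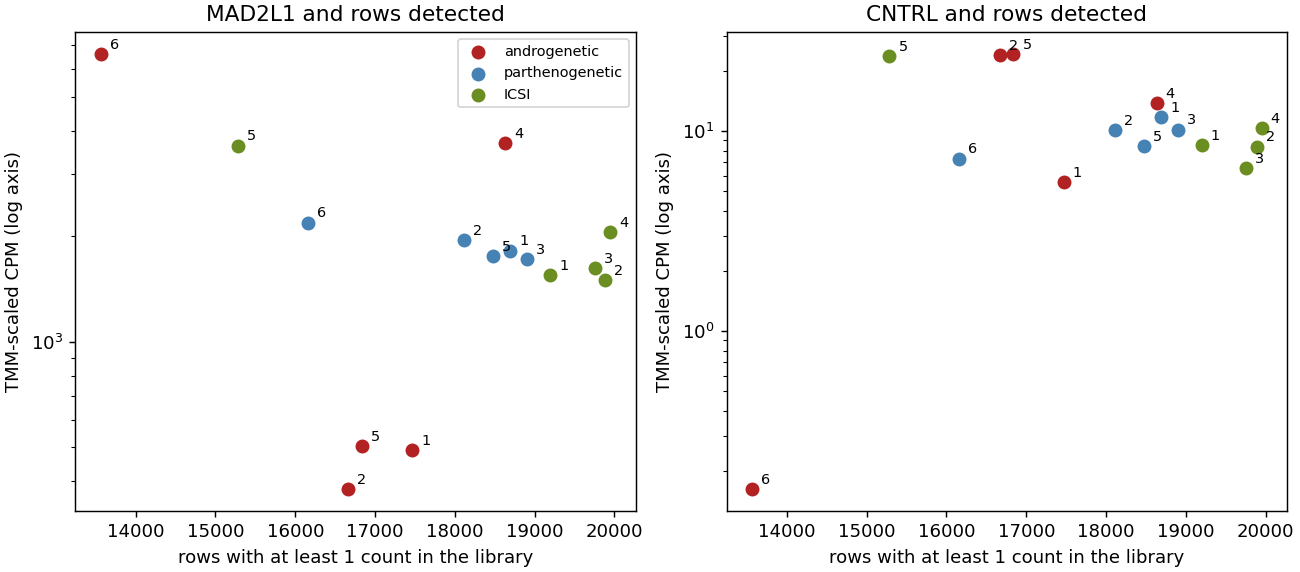
TMM-scaled CPM of MAD2L1 and CNTRL (log axes) against the number of rows with at least 1 count, 1 point per library with its replicate number. Androgenetic replicate 6, with 13564 rows, has the highest MAD2L1 and the lowest CNTRL, while androgenetic replicate 4, with 18633 rows, is high in MAD2L1 as well.

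In each group the library with the fewest detected rows had the highest MAD2L1 in TMM-scaled CPM, and whether the 2 are linked was not tested. The other androgenetic libraries did not follow that order. Androgenetic replicates 1, 2 and 5, the low ones, had 17468, 16665 and 16839 detected rows, and replicate 4, a high one, had 18633. Within the ICSI group the highest levels of both genes were in replicate 5, the library with the fewest detected rows. In the parthenogenetic group replicate 6, with the fewest, had the highest MAD2L1 and the lowest CNTRL in CPM. By share of counts its MAD2L1 was instead the lowest of that group, at 0.169% against 0.196% to 0.208% in the others.

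The first comparison was between androgenetic and ICSI morulae, which both received a sperm and differ in ploidy and in the oocyte genome. Mean MAD2L1 was 2334 ± 2770.4 CPM (SD, n = 5) in androgenetic and 2069 ± 894 in ICSI libraries, but the medians ran the other way, at 504 and 1619 CPM. The log2 fold change was 0.17 ± 0.64 (SE), with a 95% interval of -1.16 to 1.51 (edgeR adjusted p = 0.910). The difference was smaller than the spread, and the interval holds changes from 0.446-fold to 2.85-fold. Its sign rested on the 2 high libraries: without androgenetic replicate 4 it was -0.054 and without replicate 6 it was -0.67.

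CNTRL had means of 13.6 ± 10.8 CPM in androgenetic and 11.5 ± 6.98 in ICSI libraries (SD, n = 5 each). The log2 fold change was 0.24 ± 0.76 (SE; 95% interval -1.36 to 1.85, edgeR adjusted p = 0.899). It was 0.75 without ICSI replicate 5, 0.67 without androgenetic replicate 6, -0.082 without androgenetic replicate 5 and 1.12 without the library of each group with the fewest detected rows, and did not pass in any of these fits. So 0 of the 2 genes passed in this comparison, where 2.82% of all tested rows did.

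The second comparison, of parthenogenetic with ICSI morulae, sets haploid embryos that had no sperm against diploid embryos that had one. Sperm, ploidy and procedure change together in it. Mean MAD2L1 was 1885 ± 189 CPM in parthenogenetic libraries, with a log2 fold change from ICSI of -0.13 ± 0.64 (SE; 95% interval -1.47 to 1.20, edgeR adjusted p = 0.99997). By medians the parthenogenetic level was the higher one, at 1818 against 1619 CPM, and by share of counts the lower one, at 0.197% against 0.222%. CNTRL was at 9.55 ± 1.71 CPM, with a log2 fold change of -0.27 ± 0.76 (SE; 95% interval -1.87 to 1.34, edgeR adjusted p = 0.99997).

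Neither level differed beyond the spread, and 0 of the 2 genes passed where 0.0733% of all tested rows did. Both signs turned without ICSI replicate 5, to 0.16 for MAD2L1 and 0.17 for CNTRL. The CNTRL interval, which reaches from 0.273-fold to 2.52-fold, does not show that embryos with and without a sperm had the same level. These embryos differ in ploidy as well.

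Between the haploid groups ploidy is matched and the parental genome is not. MAD2L1 had a log2 fold change of 0.31 ± 0.64 (SE; 95% interval -1.03 to 1.65, edgeR adjusted p = 0.842) for androgenetic minus parthenogenetic morulae, and -0.54 without androgenetic replicate 6. CNTRL had 0.51 ± 0.77 (SE; 95% interval -1.10 to 2.12, edgeR adjusted p = 0.770), and 0.94 without that library. Of the 2 genes 0 passed, against 1.75% of all tested rows. This contrast is also the test of whether the 2 haploid groups differ from ICSI by unlike amounts, and for neither gene did it pass.

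Ploidy was taken up by averaging the haploid groups and subtracting ICSI. The log2 fold changes were near 0, at 0.020 ± 0.55 for MAD2L1 (SE; 95% interval -1.14 to 1.18, edgeR adjusted p = 0.997) and -0.014 ± 0.66 for CNTRL (95% interval -1.40 to 1.37, edgeR adjusted p = 0.998). Neither gene passed, where 0.0366% of all tested rows did. For values so near 0 a sign means little: that of MAD2L1 turned in 6 and that of CNTRL in 5 of the 15 fits that left out 1 library. The largest moves were -0.40 for MAD2L1 without androgenetic replicate 6 and 0.46 for CNTRL without ICSI replicate 5.

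The presence of a sperm was taken up by setting the mean of androgenetic and ICSI morulae against parthenogenetic ones. Ploidy was not matched in this contrast, since only the ICSI morulae were diploid. MAD2L1 had a log2 fold change of 0.22 ± 0.56 (SE; 95% interval -0.95 to 1.39, edgeR adjusted p = 0.990). CNTRL, the centriolar gene, had 0.39 ± 0.67 (SE; 95% interval -1.02 to 1.80, edgeR adjusted p = 0.982). Neither passed, against 0.0672% of all tested rows, and without androgenetic replicate 6 the values were -0.21 and 0.61. All these comparisons share libraries, so they are not separate pieces of evidence.

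**Figure D3:**
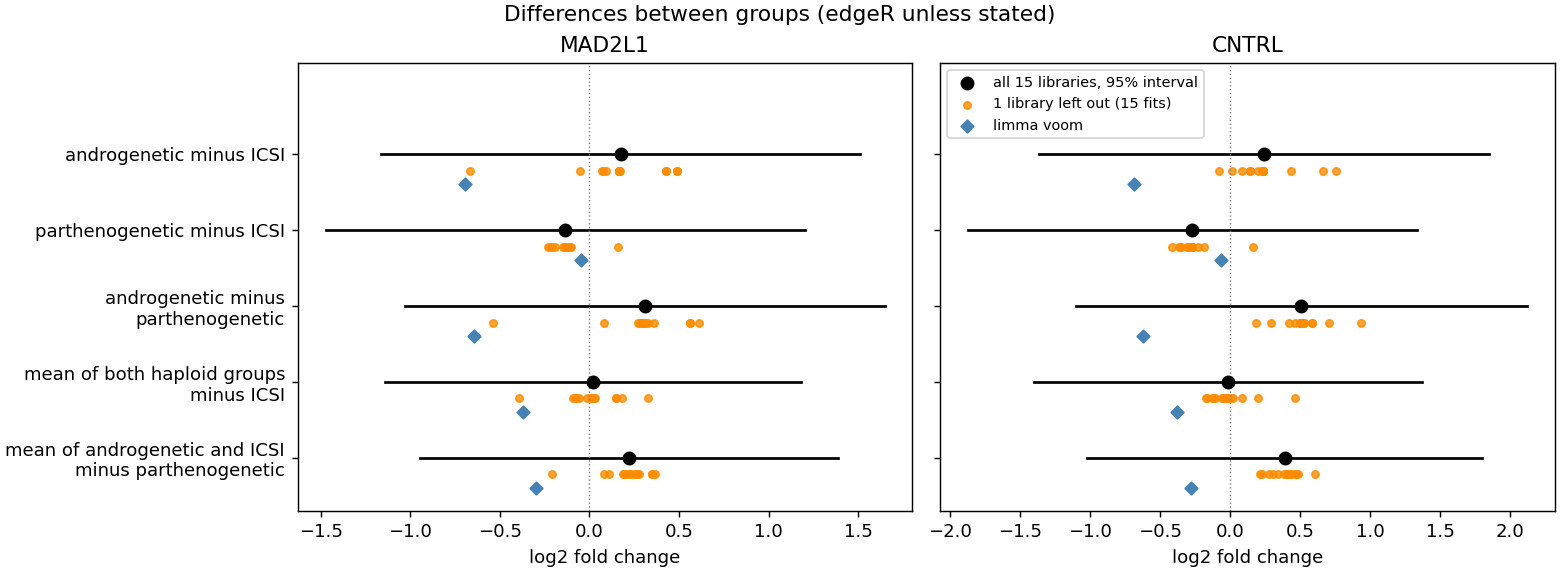
Log2 fold changes of MAD2L1 and CNTRL in the 5 contrasts. Black points and lines are the edgeR estimate with its 95% interval, orange points the estimates with 1 library left out, and blue diamonds limma voom. All 10 intervals include 0, and the limma voom values of both genes for androgenetic minus ICSI lie below 0 at -0.69.

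The count of 0 genes passed did not depend on the tool. At an unadjusted p under 0.05 there were also 0 of 2 in each contrast, with edgeR, DESeq2 and limma voom alike. By that mark edgeR had 3231, 304, 3056, 1476 and 1171 of 16375 rows in the 5 contrasts as ordered above, so 0 of 2 says little about these genes. limma voom, which compares means of log values, gave androgenetic minus ICSI values of -0.69 for both genes, opposite in sign to edgeR (adjusted p = 0.490 for MAD2L1 and 0.669 for CNTRL). The mean of log2(CPM + 1) for MAD2L1 was 10.2 for the androgenetic group and 10.9 for both others.

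Of the 15 fixed genes of the spindle checkpoint only TPR and MAD2L1 had a row under their symbol, and of the 26 fixed genes of the mother centriole and its appendages only CNTRL. The lists of kinetochore, anaphase-promoting complex, centriole duplication, pericentriolar and cytokinesis genes had 0, since 27607 rows carry an Ensembl identifier that was not paired with a symbol here. TPR encodes a protein of the nuclear pore basket that holds MAD1 and MAD2 at the nuclear envelope between divisions. Its level was 39.3, 54.8, 44.5, 23.8 and 64.7 CPM in androgenetic replicates 1, 2, 4, 5 and 6.

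The parthenogenetic libraries held TPR at 56.9 to 92.7 CPM and the ICSI libraries at 52.9 to 82.5 CPM, with medians of 81.0 and 71.8 CPM against 44.5 in androgenetic ones. The androgenetic group was the low one and in CPM overlapped both others. By share of counts this group lay below both, at no more than 0.00454% against at least 0.00496% in ICSI and 0.00687% in parthenogenetic libraries. Its log2 fold change was -0.61 ± 0.33 against ICSI (SE; edgeR adjusted p = 0.315) and -0.80 ± 0.33 against parthenogenetic morulae (edgeR adjusted p = 0.198, unadjusted 0.0254), and neither passed. In the other contrasts TPR did not pass either. The sign of both was negative in all 15 fits that left out 1 library. TPR did not show the split of MAD2L1. In CPM androgenetic replicate 6 was the highest in its group for both genes, but replicate 2, the lowest in MAD2L1, was the second highest for TPR. By share of counts androgenetic replicates 4 and 6, the high ones in MAD2L1, were highest for TPR too, at 0.00454% and 0.00419%. Replicate 2 was close to them, at 0.00400%.

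Rows that followed MAD2L1 were sought by Pearson correlation of log2(CPM + 1) over the 15 libraries, as a description with no p. The points share their libraries and scaling. Among 609 other tested rows with a symbol the 5 most alike were MDGA2 (r = 0.928), BORCS7 (0.902), BAAT (0.874), CBWD2 (0.871) and TAF7 (0.867). MDGA2 encodes a membrane-anchored adhesion protein known from synapses, BORCS7 a subunit of the complex that moves lysosomes along microtubules, BAAT an enzyme that conjugates bile acids, and TAF7 a subunit of the general transcription factor TFIID.

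MDGA2 kept the order of MAD2L1 most closely. It stood at 580, 441 and 373 CPM in androgenetic replicates 1, 2 and 5 and at 1721 and 2392 CPM in replicates 4 and 6, while the parthenogenetic libraries held 820 to 1344 CPM and those of ICSI 656 to 1550 CPM. Here too the low and high androgenetic libraries were on either side of the others. MDGA2 was chosen by its correlation with MAD2L1, so this is not a separate instance of the pattern. Without the 2 libraries farthest from the median of MAD2L1, androgenetic replicates 2 and 6, r was 0.887 for MDGA2 and between 0.747 and 0.898 for the other 4. Least alike were FAM19A3 (r = -0.861), SNRNP70 (-0.844), whose protein is part of the U1 splicing particle, and RTL8C (-0.823). SNRNP70 was at 22.8, 22.6 and 25.8 CPM in androgenetic replicates 1, 2 and 5 and at 4.70 and 1.79 CPM in replicates 4 and 6.

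Over all tested rows 68 of 16374 (0.415%) had r of at least 0.9 with MAD2L1, and 7 had at least 0.95. The closest was ENSBTAG00000024874, a row without a symbol here, at r = 0.997. Its levels were 295, 188 and 247 CPM in androgenetic replicates 1, 2 and 5, 3132 and 5033 CPM in replicates 4 and 6, 1283 to 1506 CPM in the parthenogenetic group and 1011 to 2809 CPM with ICSI. The 2 rows were not counted from the same reads throughout, since MAD2L1 had 1.17 to 2.04 times as many counts. That ratio was 1.66, 2.02 and 2.04 in androgenetic replicates 1, 2 and 5 and 1.17 and 1.31 in replicates 4 and 6, against 1.33 to 1.45 in the parthenogenetic group and 1.29 to 1.48 with ICSI. Whether that row is a related copy, an overlapping gene or a gene that varies with MAD2L1 was not checked, and near-identical copies of MAD2L1 cannot be told from it in these counts.

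**Figure D4:**
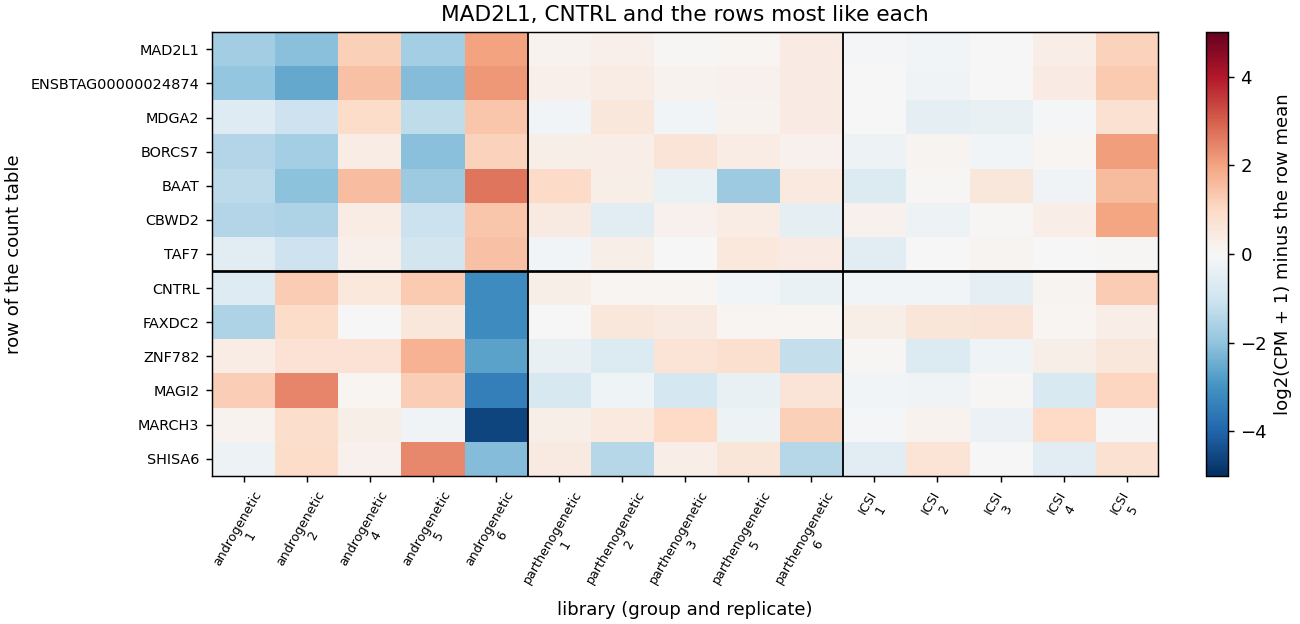
Log2(CPM + 1) minus the row mean in each library for MAD2L1, the unnamed row ENSBTAG00000024874 and the 5 symbol rows most like MAD2L1 (above the line), and for CNTRL and the 5 most like it (below). Red is above and blue below the row mean. The upper rows are low in androgenetic replicates 1, 2 and 5 and the lower rows are lowest in androgenetic replicate 6.

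CNTRL had no row so close. Of 16374 rows 0 reached r = 0.9, and the 5 symbol rows most alike were FAXDC2 (0.835), ZNF782 (0.815), MAGI2 (0.782), MARCH3 (0.761) and SHISA6 (0.749). Their rank correlations were 0.314, 0.632, 0.336, 0.296 and 0.643. FAXDC2 belongs to the fatty acid hydroxylase family, ZNF782 encodes a zinc finger protein, MAGI2 a scaffold protein of cell junctions, and MARCH3 a membrane-bound ubiquitin ligase.

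These likenesses rested largely on 1 library, and without androgenetic replicate 6 r ran from -0.00038 for MARCH3 to 0.645 for SHISA6. Androgenetic replicate 6 held the lowest value of all 5 genes, from 0 CPM for MARCH3 and SHISA6 to 0.434 CPM for MAGI2. Without androgenetic replicates 5 and 6, the 2 farthest from the median of CNTRL, r was between 0.166 and 0.501. Least alike were C25H7orf43 (r = -0.860), SLC15A2 (-0.808), a peptide transporter gene, and SHISA9 (-0.800), and all 3 were highest in that same library, at 3.85, 18.2 and 5.31 CPM.

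In RefSeq's gene table for ARS-UCD2.0, used for names and neighbours only, CNTRL overlaps the non-coding RNA gene LOC101906836. How the counting used strand is not given in the sources used here, so reads shared by the 2 genes could not be told apart. The row LOC101906836 had 0 counts in androgenetic replicates 4 and 5 and parthenogenetic replicate 2, where CNTRL had 368, 410 and 262, and in androgenetic replicate 6, where CNTRL had 3. It had at most 161 in any library. In ICSI replicate 5, which held those 161, CNTRL had its highest count of 508. MAD2L1 overlaps no other gene in that table, but as the very short gene next to KCNA4 it could there be a processed copy, and what its row counts was not settled. The build to which the authors aligned is not given in the sources used here, and no position is printed.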

How the data were processed

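Counts per row and library were deposited by the authors as whole numbers, not normalized. Per the submitters' processing notes, reads passed through featureCounts, STAR, cutadapt and Trim Galore, listed here in no order. Versions, genome build, annotation and strand setting are not given in the sources used here. Per the labels' protocols, a SMART-Seq HT kit served for amplification. Groups came from the labels and columns were matched to sample titles.

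Counts were tested in edgeR 4.0.16 (R 4.3.3): the default filter on low counts, TMM factors, 1 quasi-likelihood fit to the 15 libraries together, and Benjamini-Hochberg adjustment over 16375 rows, which held 99.9% of counts. A row passed at an adjusted p under 0.05. The common biological coefficient of variation was 1.02. SE is the log2 fold change divided by the square root of F, and intervals use the fit's t distribution. The test was tested on simulated data. Alternatives used DESeq2 1.42.0, limma 3.58.1, other scalings and filters, a replicate block, fits of 2 groups, and libraries left out.

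Genes named were MAD2L1 and CNTRL, called or extreme members of fixed lists, and by r the 5 symbol rows most and 3 least like each. Members and lists were chosen with earlier results of these data known. RefSeq names (ARS-UCD2.0) matched both genes.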

Additional observations from a re-analysis of the deposited data

Results flagged for a closer look

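ICSI replicate 5 stood apart from the other 4 ICSI libraries in both genes. It held CNTRL at 23.8 CPM, where the next highest had 10.4, and MAD2L1 at 3619 CPM, where the next highest had 2057. ENSBTAG00000024874, the row that follows MAD2L1 at r = 0.997, was at 2809 CPM there and is not counted as a separate signal. On the CPM scale, the gap to the nearest library was 0.778, 0.737 and 0.718 of the group's range. These ratios were above Dixon's 95% critical value of 0.71 for 5 samples. Dixon's test was not run on log2(CPM + 1), the scale of the spreads above, or on shares of counts. The flags are therefore given for CPM only, and whether they hold on those scales was not tested. Chance alone flags about 5% of groups. Since the 3 values come from 1 library, and 2 of them from rows that varied together, their number is not set against that share. ICSI replicate 5 stood apart over all rows too, with a mean Spearman correlation of 0.836 with its own group, against 0.898 to 0.899 for the other 4 ICSI libraries. It also had the fewest detected rows of its group, at 15286, and whether this plays a part in the levels was not tested.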

How the results depend on the processing

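MAD2L1 and CNTRL passed in 0 of 236 values under the alternatives, each for a gene, a contrast and a setting (lowest adjusted p 0.159, in edgeR). Of these values 45 had the opposite sign to the reported one. Unless named below, the cause was not tested. Left-out libraries gave, for MAD2L1, -0.67 to 0.49 (androgenetic minus ICSI), -0.23 to 0.16 (parthenogenetic minus ICSI), -0.54 to 0.61 (androgenetic minus parthenogenetic), -0.40 to 0.32 (haploid mean minus ICSI) and -0.21 to 0.37 (mean of androgenetic and ICSI, here the sperm groups, minus parthenogenetic). For CNTRL they gave -0.082 to 0.75, -0.42 to 0.17, 0.19 to 0.94, -0.18 to 0.46 and 0.21 to 0.61 in the same order. The rows passed ran from 0 to 1077, 3 to 14, 14 to 903, 2 to 10 and 5 to 35.

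Without the library of each group with the fewest detected rows, MAD2L1 was at -0.36, 0.089, -0.45, -0.14 and -0.27 in that order, CNTRL at 1.12 (unadjusted p = 0.0362, adjusted 0.159 in edgeR), 0.24, 0.88, 0.68 and 0.32, and 1630, 6, 1874, 3 and 21 rows passed. With limma voom MAD2L1 was at -0.69, -0.65, -0.37 and -0.30 in all but parthenogenetic minus ICSI. CNTRL was at -0.69, -0.62 and -0.28 for androgenetic minus ICSI, androgenetic minus parthenogenetic and the sperm groups. Rows passed were 876, 703 and 14 for the androgenetic contrasts and the haploid mean. DESeq2 passed 1987, 35, 1665, 191 and 208 rows. The haploid mean of CNTRL, near 0, was 0.040 with DESeq2 or its size factors, 0.052 with upper-quartile factors, 0.0019 without a filter and 0.076 with the stricter one. The stricter filter passed 6 rows for parthenogenetic minus ICSI and 6 for the sperm groups, where no filter passed 24. A fit of the 2 haploid groups alone passed 27 rows.

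The labels do not say that a number pairs libraries, and r between deviations of same-numbered libraries was over 0.1 in 4 of 12 pairs (-0.094 to 0.135); a library was best correlated with its own number in 8 of 24 comparisons. With the replicate number as a block MAD2L1 was at -1.09, -0.95, -0.61 and -0.40 (all but parthenogenetic minus ICSI). CNTRL was at 0.50, -0.41, 0.29 and -0.45 (all but androgenetic minus ICSI), and 0, 3, 88, 1 and 4 rows passed. Counts of CNTRL ran from 3 to 508 per library and those of MAD2L1 from 6177 to 122082.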
